A study of Mus musculus with 8 samples.

Results

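The genes described here are 10 genes of fatty acid synthesis and desaturation: Scd1, Scd2, Fasn, Acly, Acaca, Elovl6, Srebf1, Thrsp, Me1 and Pnpla3. They were chosen by name, with the wide spread of Scd1 and Fasn between hearts already known, and each was followed through probe sets that the array's annotation gives a single gene symbol. Of the 10 genes, 9 had such a probe set, 1 each, among 22180 genes measured. The probe set for Scd2 carries another symbol as well, so Scd2 has no value in the comparisons. The hearts came from 8 mice, 4 males and 4 females, all heterozygous for Pcyt2 (Pcyt2+/-) and 8 months old. Pcyt2 encodes the enzyme that limits the making of phosphatidylethanolamine from ethanolamine. The labels call the tissue myocardium and the samples biological replicates. The hearts were taken 3 to 4 hours after lights on and frozen in liquid nitrogen, and 100 ng of RNA per heart was labelled for an Affymetrix array. Sex is the only difference between the labels of the groups. Hearts of wild-type mice are not part of this comparison and were not analysed here.

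Fatty acids are built in the cytosol from citrate. ATP citrate lyase (Acly) splits citrate into acetyl-CoA, acetyl-CoA carboxylase (Acaca) makes malonyl-CoA, fatty acid synthase (Fasn) assembles palmitate with NADPH that malic enzyme (Me1) helps to supply, Elovl6 lengthens the product and stearoyl-CoA desaturases (Scd1, Scd2) make it monounsaturated. The transcription factor encoded by Srebf1 drives most of these genes, Thrsp encodes a small protein that promotes lipogenesis, and Pnpla3 encodes a lipid droplet protein of the patatin-like family. Liver and adipose tissue are the main sites of the pathway, and adipose tissue can lie on the surface of a heart.

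Every value is on a log2 scale and relative to the median of its own probe set over the 8 arrays, so 0 is that median and 1 a doubling of signal. No absolute level of any gene is known, the levels of different genes cannot be compared, and the heart muscle genes that would check the tissue label can be followed only as differences between hearts. Higher values mean more transcript: Xist was lowest at 1.99 in the females and highest at -1.99 in the males, and 3 Y-linked genes were higher in every male than in every female.

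Promoter sequences of RefSeq were available for 8 of the 10 genes. They are shown for Fasn and Elovl6, whose highest values fell in the same hearts, and for Thrsp, which shared the highest heart with Fasn. Each is the 250 bases before the annotated start, read 5′ to 3′ along the gene's strand in GRCm38.p6, with the letters of CCAAT, the box bound by NF-Y, in capitals on either strand (ATTGG where it runs backwards). Fasn is at chr11:120824548-120824797 on the minus strand, Elovl6 at chr3:129532136-129532385 on the plus strand and Thrsp at chr7:97417551-97417800 on the minus strand.
Fasn: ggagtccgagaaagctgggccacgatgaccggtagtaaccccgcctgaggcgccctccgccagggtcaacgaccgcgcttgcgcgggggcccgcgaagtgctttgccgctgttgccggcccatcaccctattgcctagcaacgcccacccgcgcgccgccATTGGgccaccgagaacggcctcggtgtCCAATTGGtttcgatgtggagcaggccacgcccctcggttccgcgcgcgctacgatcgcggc
Elovl6: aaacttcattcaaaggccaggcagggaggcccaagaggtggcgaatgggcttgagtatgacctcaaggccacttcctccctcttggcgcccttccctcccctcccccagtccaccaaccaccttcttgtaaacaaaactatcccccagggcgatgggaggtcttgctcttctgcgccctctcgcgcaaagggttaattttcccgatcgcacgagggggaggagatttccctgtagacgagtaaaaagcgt
Thrsp: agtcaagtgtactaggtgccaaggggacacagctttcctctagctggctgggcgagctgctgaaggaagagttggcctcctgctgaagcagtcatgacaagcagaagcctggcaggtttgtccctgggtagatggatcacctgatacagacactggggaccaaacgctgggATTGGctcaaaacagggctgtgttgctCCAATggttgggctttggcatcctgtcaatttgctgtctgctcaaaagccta
The Fasn stretch held 3 matches, 1 forward and 2 reversed, whose leftmost bases lie at -90, -62 and -59 from the start, and the last 2 overlap in the run CCAATTGG. The Thrsp stretch held 2 matches, at -79 and -52, and the Elovl6 stretch 0. Of 11 such stretches of the 8 genes, 6 held CCAAT, against 33.8% of 32851 stretches of the same length over all genes. The E-box CACGTG and the sterol element TCACNCCAC, searched on both strands, were found in 0 of the 11, against 6.02% and 1.05% of all stretches.

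Scd1 differed most between hearts. Its log2 values were -0.57, -0.16, 0.04 and -0.04 in males 1 to 4, and -0.04, 1.26, 1.38 and 2.11 in females 1 to 4. Females 2, 3 and 4 stood apart from the other 5 hearts by a gap of 1.23, while female 1 lay among the males. The highest and lowest hearts, female 4 and male 1, differed 6.42-fold, and Scd1 ranked 7 by range among the 22180 genes.

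Fasn followed the same hearts with a smaller spread. Its log2 values were -0.24, -0.13, -0.02 and -0.0038 in males 1 to 4, and 0.0038, 0.63, 0.71 and 1.26 in females 1 to 4. The range was 1.50, or 2.83-fold, against a median range of 0.22 over all genes. Females 2, 3 and 4 were again above a gap, of 0.62. All 4 females exceeded all 4 males, but female 1 did so by 0.0077 only. Since these genes were picked for their spread, the ranges of Scd1 and Fasn are descriptions and were not tested.

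**Figure D1:**
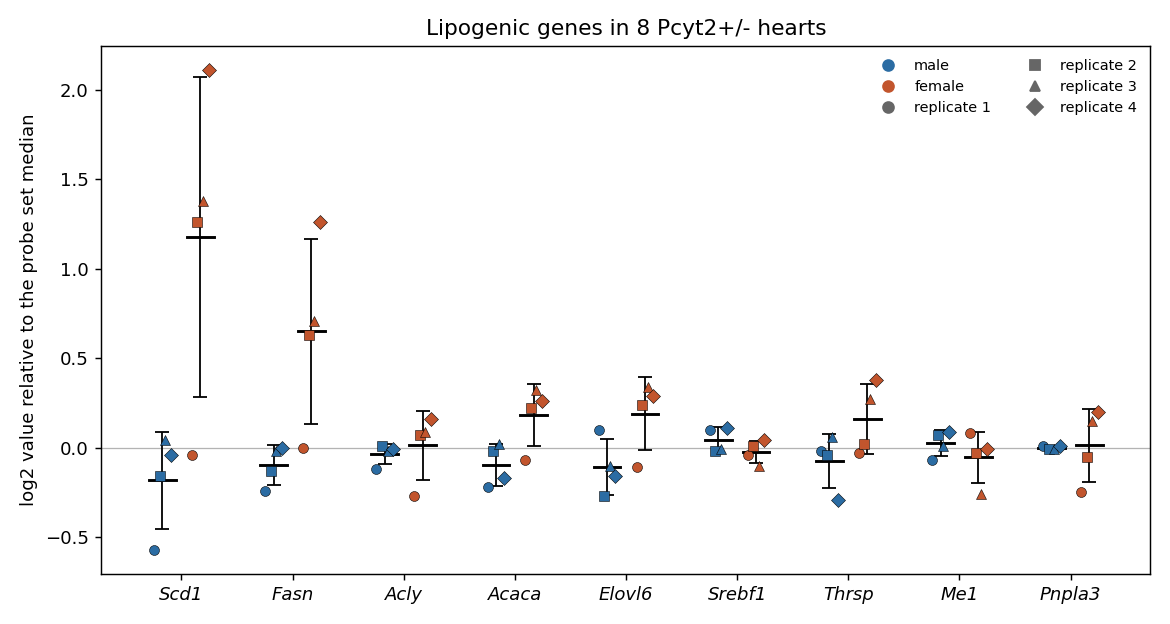
Log2 values relative to the probe set median (vertical axis) of the 9 measured genes (horizontal axis) in 4 male (blue) and 4 female (orange) Pcyt2+/- hearts. Symbols mark the replicate, long bars the mean and whiskers the SD, and Scd1 and Fasn in females 2, 3 and 4 lie between 0.63 and 2.11, above every male.

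The enzymes on either side of Fasn showed smaller steps in the same direction. Acaca, the carboxylase that commits acetyl-CoA to synthesis, had log2 values of -0.22, -0.02, 0.02 and -0.17 in males 1 to 4 and -0.07, 0.22, 0.32 and 0.26 in females 1 to 4. Elovl6, the elongase of palmitate, had 0.10, -0.27, -0.10 and -0.16 in males and -0.11, 0.24, 0.34 and 0.29 in females. For both genes females 2, 3 and 4 were the highest hearts and female 1 lay within the range of the males.

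Acly, which supplies acetyl-CoA, also had these 3 females highest, at 0.07, 0.09 and 0.16, but by little: the highest male was at 0.01. Its lowest heart was female 1 at -0.27, below the lowest male at -0.12. Females 2, 3 and 4 were thus the 3 highest hearts for 5 of the 9 measured genes (Scd1, Fasn, Acly, Acaca and Elovl6), an order looked for after the values were seen. Over all genes 1.99% had the same 3 hearts highest.

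The remaining genes did not follow that order. Thrsp was highest in females 4 and 3, at 0.38 and 0.27, then in male 3 at 0.06, and lowest in male 4 at -0.29. Pnpla3 lay between -0.01 and 0.01 in all 4 males and at -0.25, -0.05, 0.15 and 0.20 in females 1 to 4, an SD of 0.01 against 0.21. Me1, a source of NADPH, was lowest in female 3 at -0.26, where Scd1 and Fasn were high, and lay between -0.07 and 0.09 in the other 7 hearts.

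Srebf1, the transcription factor gene, varied least. It had log2 values of 0.10, -0.02, -0.01 and 0.11 in males 1 to 4 and -0.04, 0.01, -0.10 and 0.04 in females 1 to 4. Its range of 0.21 was below the median range of all genes, and 54.8% of genes had a wider one. Male 4 was its highest heart, and female 3, where Scd1 was at 1.38, its lowest.

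The sexes were compared with limma over all 22180 genes, as females minus males, with Benjamini-Hochberg adjustment and a threshold of 0.05. None of the 9 genes passed (0, against 0.0316% of all genes), while 4 of them had an unadjusted p under 0.05 and a higher mean in females, a direction and limit met by 3.63% of all genes. None had such a p with a higher mean in males (0, against 3.32% of all genes). Scd1 and Fasn are among the 4 and were picked with their spread between these hearts known, so the count of 4 is not free of that choice. Scd1 averaged -0.18 ± 0.27 over the 4 males and 1.18 ± 0.89 over the 4 females (mean ± SD), a difference of 1.36 (95% interval 0.50 to 2.22) or 2.57-fold (limma adjusted p = 0.518). For Fasn the averages were -0.10 ± 0.11 and 0.65 ± 0.51, a difference of 0.75 (0.26 to 1.24) or 1.68-fold (limma adjusted p = 0.542). Neither sex difference is thus separated from the spread between hearts once all genes are counted, and for both genes the SD was larger in the females.

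The other genes at an unadjusted p under 0.05 were Acaca and Elovl6, with differences of 0.28 (95% interval 0.08 to 0.48) and 0.30 (0.06 to 0.54) at limma adjusted p of 0.577 and 0.633. Thrsp had 0.23 (-0.01 to 0.47, adjusted p = 0.72). The intervals of Acly, 0.05 (-0.15 to 0.24), and Pnpla3, 0.01 (-0.19 to 0.21), spanned 0, as did those of Srebf1, -0.07 (-0.17 to 0.03), and Me1, -0.08 (-0.24 to 0.08). In all, 7 of the 9 had higher means in females, with a median difference of 0.23, against 49.6% of all genes and a median of -0.001. Fasn was the 1 gene of the 9 with no overlap between the sexes, against 1.89% of all genes with females higher, and 0 had every male above every female, against 1.85%.

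Single hearts weighed on these values. Without female 1 the Scd1 difference was 1.77 (limma adjusted p = 0.0917) and the Fasn difference 0.97 (adjusted p = 0.166). All 3 remaining females were then above all males for 5 of the 9 genes, against 3.4% of all genes in the same 7 hearts. These are the 5 genes already given with females 2, 3 and 4 highest, so the count restates that order and is no further result. Without male 3 the count of genes with no overlap between the sexes was 2, against 3.29% of all genes. Without female 4 the Scd1 and Fasn differences were 1.05 and 0.55, and the Scd1 range fell to 1.95.

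Markers of fat tissue were followed because adipose tissue expresses these genes strongly. Of 11 adipocyte markers outside fatty acid synthesis, 9 were measured, and their mean was -0.28, -0.08, 0.08 and -0.11 in males 1 to 4 and -0.05, 0.22, 0.04 and 0.50 in females 1 to 4. Higher means in females were found for 8 of the 9, against 49.6% of all genes. At an unadjusted p under 0.05, 4 of them were higher and 1, Aqp7, was lower at -0.23 (against 3.63% and 3.32% of all genes). Over all genes 0 passed. In a wider list of 18 measured white adipocyte markers, 14 had higher means in females, 5 of them at that limit, and 1 was lower at it. The median difference was 0.08 in that list, against 0.22 for the 9, and Fabp4 (-0.01), Pparg (-0.04) and Cd36 (-0.04) hardly differed. The spread of the 9 was led by Car3, a carbonic anhydrase abundant in fat, with values of -0.95 in male 1 and 1.61 in female 4. Next came Cidec, a lipid droplet protein gene, with -0.54 and 0.85 in the same hearts, and the adipokine gene Retn, highest in female 4 at 0.73. Because the values are centred, it is not known which of these markers are near background, and in whole tissue more fat cells cannot be told apart from more transcript per cell.

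Female 4, the heart with the most Scd1 and Fasn, also had the highest marker mean, and male 1, the lowest for both, had the lowest. Female 3 and male 3 broke that order. Their marker means were 0.04 and 0.08, yet Scd1 was at 1.38 in female 3 and 0.04 in male 3, and Fasn at 0.71 and -0.02. With the marker mean as a covariate in limma the Scd1 difference was 0.60 (95% interval -0.06 to 1.27, adjusted p = 0.696) and the Fasn difference 0.33 (-0.06 to 0.71, adjusted p = 0.713). The count of genes at an unadjusted p under 0.05 went from 4 to 0, while 3.67% of all genes met that limit in the same fit.

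**Figure D2:**
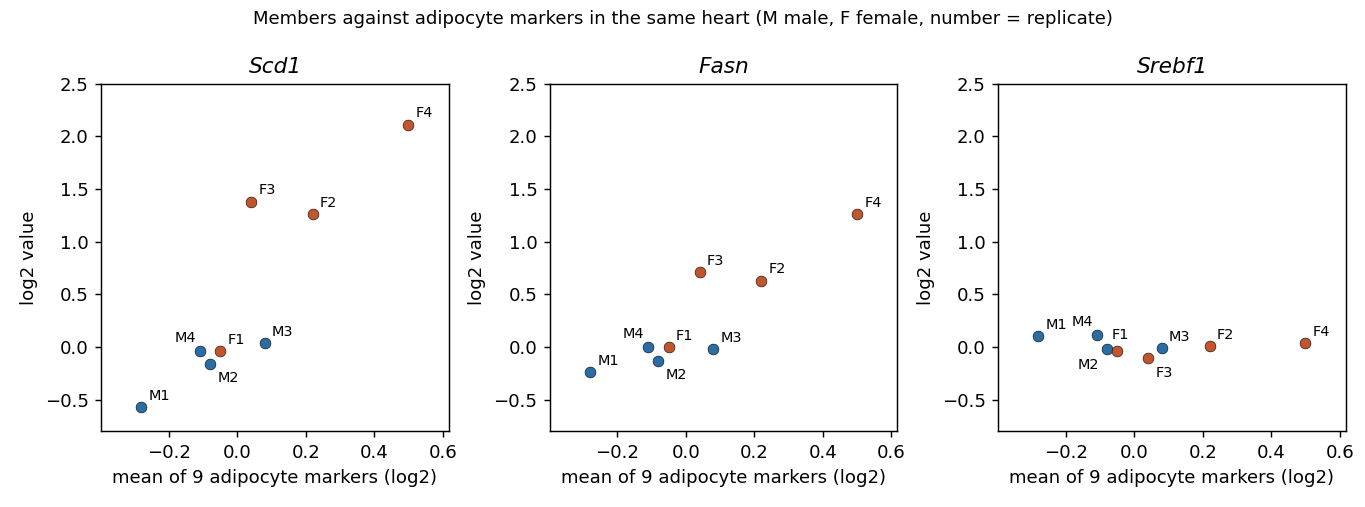
Log2 values of Scd1, Fasn and Srebf1 (vertical axes, same scale) against the mean log2 value of 9 adipocyte markers (horizontal axes) in each heart, with males in blue and females in orange. Female 3 and male 3 have marker means of 0.04 and 0.08 but Scd1 values of 1.38 and 0.04, and Srebf1 stays between -0.10 and 0.11.

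**Figure D3:**
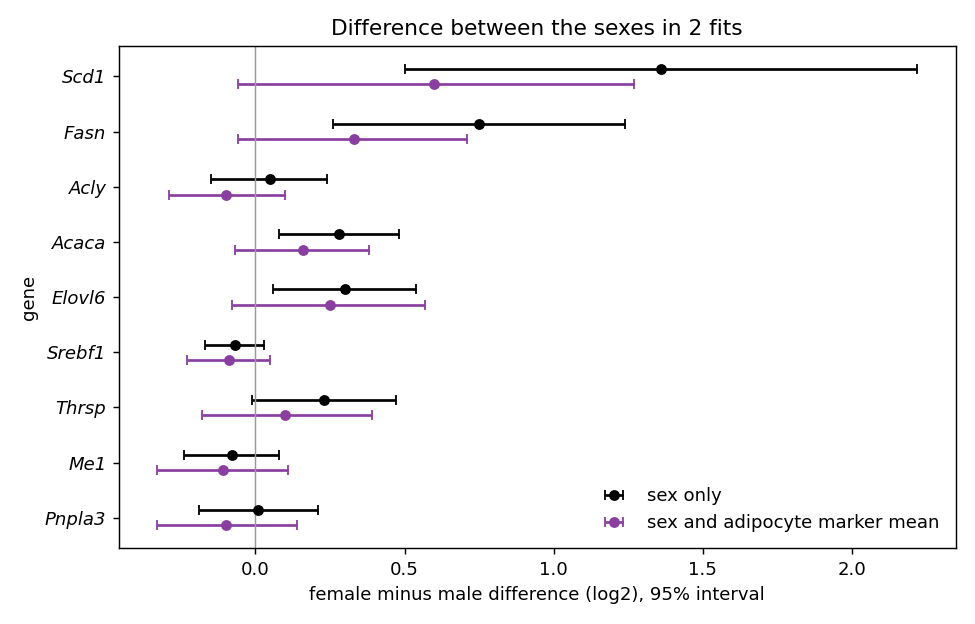
Female minus male difference on the log2 scale (horizontal axis) with its 95% interval for each of the 9 genes (vertical axis), from limma with sex alone (black) and with the adipocyte marker mean as a covariate (purple), 4 hearts per sex. The Scd1 estimate is 1.36 with sex alone and 0.60 with the covariate, and the covariate intervals of all 9 genes include 0.

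Some brown fat markers had their higher values in females 2, 3 and 4 and also in male 3, where Scd1 was not raised. Ucp1, the uncoupling protein gene, was highest in male 3 at 0.93. It was at 0.43, 0.71 and 0.18 in females 2 to 4 and lowest in female 1 at -0.67. The mean of the 10 brown markers was -0.03, -0.10, 0.10 and -0.04 in males 1 to 4. In females 1 to 4 it was -0.10, 0.06, 0.10 and 0.01.

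Markers of other tissues and cell types also varied between hearts, and 0 genes of the atrial, skeletal, liver-type, fibroblast and endothelial lists passed over all genes. The mean of 10 cardiac muscle genes was -0.09 in female 4 and between -0.01 and 0.02 in the other hearts. Myh6, Mybpc3, Tnnc1, Ryr2 and Tnnt2 were lowest in female 4, at -0.15, -0.23, -0.18, -0.14 and -0.08. Myl2, Myl3, Tnni3, Actc1 and Pln had their lowest values in other hearts, and the cause was not tested. The atrial gene Bmp10 was at -3.35 in male 1, -2.25 in male 3 and -3.46 in female 1 and between -0.39 and 0.91 in the rest, so all 3 females with high Scd1 were among the 5 hearts with more atrial transcript. The skeletal myosin gene Myh4 was highest in males 1 and 2 and female 1, at 1.57, 2.23 and 1.03. The liver gene Alb was at 1.76 in female 1 and 2.69 in female 2, and between -0.18 and 0.03 elsewhere. All 12 liver-type genes had higher means in females, against 49.6% of all genes, with a median difference of 0.09. At an unadjusted p under 0.05, 0 of them were higher in females, against 3.63% of all genes. Over the single hearts the 12 genes did not share 1 pattern. In female 1 Apoa2 was at 0.41 while Ahsg was at -0.24 and Apoc3 at -0.13, and Ahsg and Hp were highest in female 4, at 0.49 and 0.44. The Scd1 difference was 1.24 with the atrial gene mean as a covariate, 1.13 with the skeletal and 1.54 with the liver-type mean, and those of Fasn were 0.68, 0.62 and 0.88. Without the hearts low in Bmp10 the Scd1 difference was 1.68, and without those high in Myh4 it was 1.58. Of these covariate and leave-out fits, only that with the liver-type mean was planned. The others were added after seeing the data.

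Fibroblast and endothelial genes included several with lower means in females, opposite to Scd1. The 9 fibroblast genes did not all go that way: 4 had higher means in females, and the median difference was -0.30. Another 4 had an unadjusted p under 0.05 with a higher mean in males, against 3.32% of all genes. These were the collagen genes Col1a1 (-0.44), Col1a2 (-0.30) and Col3a1 (-0.44) and Dpep1 (-0.34). The fibroblast mean was 0.31, 0.14, -0.09 and 0.04 in males 1 to 4 and -0.21, 0.03, -0.11 and -0.12 in females 1 to 4, so it was highest in the heart lowest in Scd1 and lowest in female 1, where Scd1 was not raised. Of 10 endothelial genes 3 were lower in females at that limit, Cdh5 (-0.11), Kdr (-0.19) and Egfl7 (-0.12), and the endothelial mean was lowest in female 1, at -0.12, and between -0.02 and 0.05 in the other hearts. With the fibroblast mean as a covariate the Scd1 and Fasn differences were 1.34 and 0.76, and with the endothelial mean 1.83 and 1.0 (limma adjusted p = 0.0966 and 0.199), in fits added after seeing the data.

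Genes of the other steps of the pathway were compared in the same fit, in which 3.63% of all genes were higher in females and 3.32% in males at an unadjusted p under 0.05. Of 11 measured genes of citrate, acetyl-CoA and NADPH supply, 0 passed over all genes by limma, and at an unadjusted p under 0.05, 2 were higher in females and 1 in males. Slc25a1, the mitochondrial citrate exporter, had the same 3 highest hearts as Scd1, at 0.15, 0.11 and 0.29 in females 2 to 4 against -0.14 to 0.02 in the other hearts, a difference of 0.20 ± 0.06 (SE, limma adjusted p = 0.504). Pcx, the pyruvate carboxylase gene, differed by 0.16 ± 0.04 (SE, adjusted p = 0.481), with every female above every male, and the mitochondrial malic enzyme gene Me3 by -0.09 ± 0.04 (SE, adjusted p = 0.696).

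Among 26 measured genes of malonyl-CoA control, elongation and desaturation, 0 passed, and 1 was higher in females and 2 in males at an unadjusted p under 0.05. These were Hacd2, a dehydratase gene of the elongation cycle, at 0.16, Tecr, its last reductase gene, at -0.11, and Mlycd, whose enzyme breaks down malonyl-CoA, at -0.19. Acacb, the carboxylase isoform that restrains fatty acid oxidation, lay between -0.11 and 0.05 in all hearts. The other desaturase genes, looked up after the values were seen, did not share the order of Scd1. Scd3 lay between -0.16 and 0.12, and Scd4 had its lowest values in females 1 and 3, at -0.73 and -0.65, and its highest in male 4 at 0.50 and female 4 at 0.39.

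Of 23 measured regulators of lipogenic transcription, 0 passed, and 1 was higher and 1 lower in females at an unadjusted p under 0.05: the insulin receptor substrate gene Irs1 at 0.09 and the growth kinase gene Mtor at -0.16. Insig1, which holds SREBP in the endoplasmic reticulum and is itself a SREBP target, was at 0.32 in female 3 but at -0.08 and 0.01 in females 2 and 4. Mlxipl, which encodes the glucose-responsive factor ChREBP, lay between -0.27 and 0.14. Of 12 measured genes of sterol synthesis driven by SREBP2, 0 passed and 5 had higher means in females, with a median difference of -0.02. Sc5d was the 1 gene of them at an unadjusted p under 0.05, at 0.12 ± 0.05 (SE, adjusted p = 0.657).

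The genes most like Scd1 were sought among 747 genes, by Pearson's r over the 8 hearts, as a description only. These are the genes with a range of at least 0.5 (954) less 5 of the 9 genes themselves and 202 with systematic names or of the microRNA, small nucleolar RNA, olfactory and vomeronasal receptor families. Among the 9 genes themselves, Fasn had r = 0.99 with Scd1, Acaca 0.92, Elovl6 0.79, Thrsp 0.77, Acly 0.75, Pnpla3 0.61, Srebf1 -0.32 and Me1 -0.44, each over 8 hearts that share the array and the sex groups. Since Scd1, Fasn and Acaca split the hearts into sets of 3 and 5, by a rule set after the values were seen, no test was made of relations with them. Tests of all pairs of the genes had been planned before that rule. Outside the 9, the likest were Prkar2b, a regulatory subunit gene of protein kinase A (r = 0.97), the growth factor binding protein gene Igfbp3 (0.95), the telomerase RNA gene Terc (0.93), Cytl1 (0.92), Erdr1 (0.91), Adipoq (0.90), Cyp2e1 (0.89) and Car3 (0.88). The 8 likest to Fasn were 7 of these, led by Prkar2b at 0.96, with Retn (0.90) in place of Erdr1.

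Prkar2b was at 0.28, 0.24 and 0.40 in females 2 to 4 and between -0.13 and 0.07 in the other hearts. Igfbp3 was at 0.26, 0.34 and 0.52 in the same females and between -0.21 and 0.11 elsewhere. Adipoq, the adipokine adiponectin, Car3 and Retn are among the adipocyte markers given above, so 2 of the 8 genes likest to Scd1 and 3 of those likest to Fasn are from that list. Lep, Plin1 and Cidec of the same list, with ranges of 0.54, 0.60 and 1.39, were also among the 747 genes ranked. They were not among the 8 likest to either gene.

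**Figure D4:**
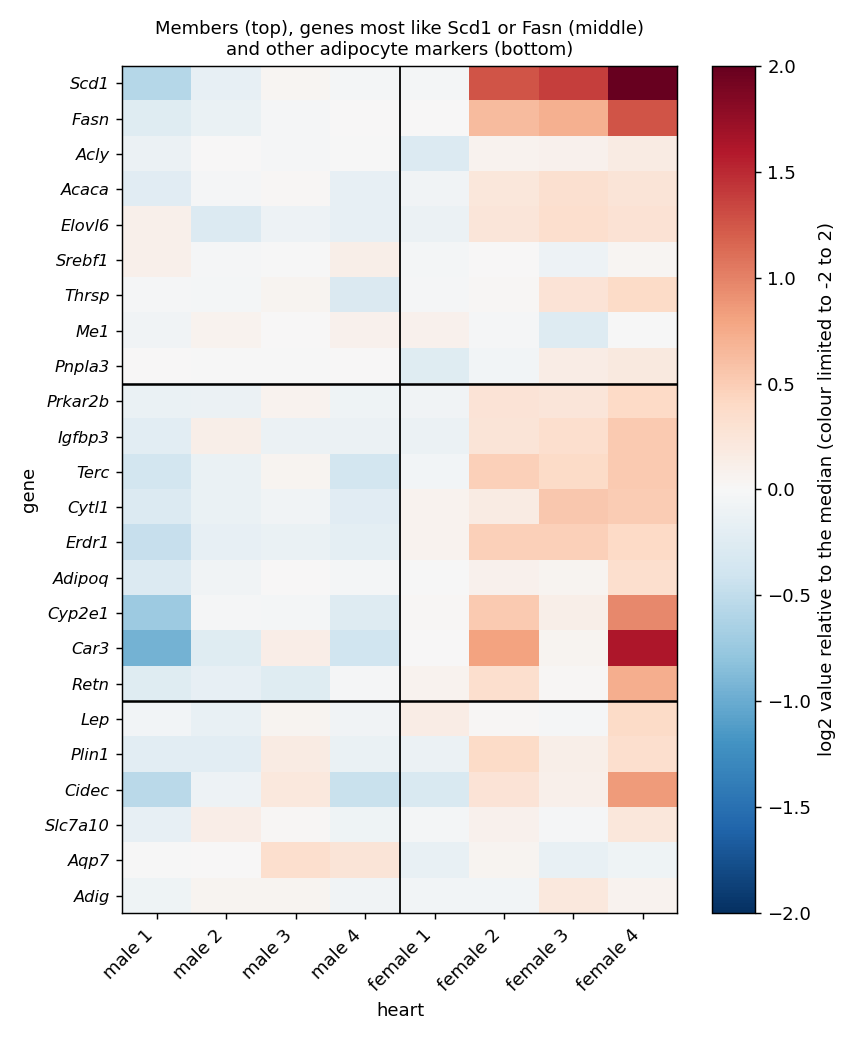
Log2 values relative to the probe set median (colour, red above and blue below the median) of the 9 genes, the genes likest to Scd1 or Fasn and the other adipocyte markers (rows) in the 8 hearts (columns). Scd1, Fasn, Prkar2b and Igfbp3 are high in females 2, 3 and 4, whereas Car3 is high in females 2 and 4 but at 0.05 in female 3.

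The 6 genes without such a split gave 15 pairs, tested with exact two-sided permutation tests over 8 hearts, and 0 passed after Benjamini-Hochberg adjustment. Acly and Pnpla3 had r = 0.86 (exact p = 0.0109, adjusted p = 0.0885) and rho = 0.60 (exact p = 0.132, adjusted p = 0.378), but without females 1 and 4 r was 0.32, so the relation rests on those hearts. Elovl6 and Me1 ran in opposite directions, with r = -0.77 (exact p = 0.0118, adjusted p = 0.0885) and rho = -0.83 (exact p = 0.0154, adjusted p = 0.115). This relation had r = -0.81 without females 3 and 4 and -0.76 for deviations from the mean of each sex. Elovl6 and Thrsp had r = 0.73 (exact p = 0.0316, adjusted p = 0.158) and rho = 0.88 (exact p = 0.00724, adjusted p = 0.109), with r = 0.36 without females 3 and 4. A test of every gene with the adipocyte marker mean had also been planned, but Scd1, Fasn and Acaca were left out by the same rule. Of the 6 genes tested, 0 correlated with that mean after adjustment over 6 tests, which does not cover the genes left out. Thrsp came nearest, with r = 0.70 (exact p = 0.0541, adjusted p = 0.233) and rho = 0.76 (exact p = 0.0368, adjusted p = 0.221), and r = 0.51 without female 4 and male 1.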

How the data were processed

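RNA of 8 hearts was hybridised to 8 Affymetrix arrays, per the labels' protocols. The deposited table holds log2 values for 34351 probe sets. For the log base (taken as 2), background correction, normalization and summarization, the method is not stated in those labels. In the deposited table every probe set has a median of 0 over the arrays (tolerance 1e-06), and array medians lie between -0.002105 and 0.002304. This centring removes brightness, so no filter on dim probe sets was possible, and the number of arrays limits the precision.

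Probe sets with 1 gene symbol (23521) were averaged per gene, giving 22180 genes. The 1814 with several symbols and 9016 unnamed ones were left out. Sexes were compared by linear models with moderated variances (limma 3.58.1, R 4.3.3), sex being the 1 term, and Benjamini-Hochberg adjustment over all genes. The code was tested on simulated data. Correlations used exact permutation tests in numpy 2.4.6. A gene's values counted as split into separate sets where the largest gap exceeded 33.3% of the range with at least 2 hearts on each side, a rule set after seeing the values. P-values measure the spread between the labelled replicates.

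The members, gene lists and tests were chosen with earlier results of these data known. All 10 members were named, with the 8 genes likest to Scd1 and to Fasn, the pathway genes at an unadjusted p under 0.05 (or else the 2 smallest) and, of the marker lists, genes of the 4 widest ranges; others were chosen after their values were seen. Not all genes that the rule named for marker lists are described. Alternatives were other scalings, variance models, covariates, a replicate block and leaving out hearts.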

Additional observations from a re-analysis of the deposited data

How the results depend on the processing

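Over 24 alternatives each, the differences of Scd1 (0.60 to 1.93) and Fasn (0.33 to 1.08) stayed higher in females, as did those of Acaca (0.16 to 0.39), Elovl6 (0.24 to 0.51) and Thrsp (0.10 to 0.40). Scd1 and Fasn passed the threshold in 1 alternative, the fit on the 9145 genes with a range of at least 0.25, with differences of 1.36 and 0.75 as before, and the count past the threshold became 2. That filter raised the prior degrees of freedom from 3.05 to infinity, giving every gene the same variance and adjusted p-values by limma of 6.58e-45 and 7.40e-13, and it removed Srebf1; elsewhere the lowest adjusted p was 0.0917 for Scd1 and 0.166 for Fasn, both without female 1. The count of 4 genes at an unadjusted p under 0.05 became 2 with trend and robust settings, 0 with the adipocyte covariate and 7 without the 2 hearts highest in Alb (an alternative added after seeing the data, with 3.4% of all genes), and ran from 3 to 6 leaving out each heart, where 3.04% to 4.19% of all genes met that limit. The count of genes with no overlap between the sexes was 1 to 5 leaving out each heart, against 3.21% to 3.97% of all genes in those sets of 7 hearts, and the ranges ran from 1.95 to 2.68 for Scd1 and from 0.96 to 1.50 for Fasn. Acly and Pnpla3 have no settled direction: with the adipocyte covariate both were at -0.10, Acly ran from -0.00 (without female 4) to 0.14 leaving out each heart, and Pnpla3 from -0.05 (without female 4; -0.03 without female 3) to 0.10, and Pnpla3 was at -0.01 with the atrial covariate and -0.03 with the skeletal covariate. Where no cause is given, the cause was not tested. With the replicate number as a block the Scd1 difference was 1.36 (limma adjusted p = 0.471) and the count stayed at 4. The numbers mark different animals, and deviations of same-numbered males and females from the means of their sexes correlated by 0.006 to 0.137. These values do not settle whether same-numbered hearts were handled together, which was not tested. Male 1 and male 2 correlated best with their own number, male 3 and male 4 did not, and the count of genes past the threshold over all genes went from 7 to 8. Correlation counts stayed at 0 in all 11 alternatives of each family.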

Other observations

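The probe set annotated to both Scd2 and the microRNA gene Mir5114 was not assigned to either. Its log2 values were -0.29, 0.06, -0.06 and 0.11 in males 1 to 4 and -0.37, 0.06, -0.21 and 0.23 in females 1 to 4. Female 4 was its highest heart and female 1 its lowest, as for Acly and Pnpla3, and female 3, high for Scd1, was among its 3 lowest.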
